A study of Mus musculus with 12 samples.

Results

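The difference between the genotypes in their response to CMC was measured as the change from untreated to CMC-treated RNA in PTCD1 knockout hearts minus the same change in wild-type hearts. Its members are all 12 of the 12 libraries of the series, taken as every sample column of the gene count tables and every per-base table of the mitochondrial chromosome. The libraries form 4 groups of 3: untreated and CMC-treated total heart RNA of PTCD1 knockout mice (KO), and untreated and CMC-treated total heart RNA of wild-type mice (WT). Cytoplasmic rRNA was depleted in all of them, and CMC was applied to isolated RNA, not to animals. The sources used here name no promoter or Cre driver behind the knockout, no age, and no statement of which libraries come from the same heart, so p-values measure the spread between these samples, which may be technical. A positive difference (log2) means that the measured value rose more, or fell less, after CMC in KO than in WT. Where a gene is said to rise or fall after CMC, its counts in the libraries are meant, not its level in the heart.

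PTCD1 is a mitochondrial pentatricopeptide repeat protein, known to be needed for the maturation of 16S rRNA, the RNA of the large subunit of the mitochondrial ribosome. CMC is a carbodiimide that stays bound to pseudouridine after an alkaline wash, where it can stop reverse transcriptase or make it skip a base. Pseudouridines of 16S rRNA are made by synthases such as RPUSD4, which sits with other proteins in a module that keeps 16S rRNA stable.

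Most of the bases printed below lie in mt-Rnr2, the 16S gene (mm10 mitochondrial chromosome, 1094 to 2675, plus strand). They are shown with 10 bases on each side, on the plus strand, 5′ to 3′, as in the reference column of the deposited tables, with the measured base in capitals. The first 3 surround 1 stretch of the 3′ part of 16S where the gap in deletion share was largest and depth steps were called. The next 2 are bases of short runs where deletions were called, and the last is a depth step of mt-Nd4l.
Deletion base, chrM:2499-2519: ctacgtgatcTgagttcagac
Step before it, chrM:2492-2512: taaagtcctaCgtgatctgag
Step after it, chrM:2511-2531: agttcagaccGgagcaatcca
Deletion in a run of A, chrM:1885-1905: gaaagatccaAaaagataaaa
Deletion in a run of T, chrM:1142-1162: aatcaaaacaTttatcctact
Step of mt-Nd4l, chrM:9898-9918: ctcaccatagCcttctcacta

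Total counts per library ranged from 10389398 to 12462093, of which 2683284 to 3187748 fell on nuclear genes. Ptcd1 (mm10 chromosome 5, 145147514 to 145167108) had 28, 17 and 19 counts in KO untreated, 23, 21 and 20 in KO CMC, 78, 71 and 74 in WT untreated and 79, 103 and 74 in WT CMC libraries, with no overlap between the genotypes. The cardiomyocyte markers Myh6, Tnnt2 and Actc1 were abundant in both genotypes and lower in KO, in counts per 1000000 counts (CPM). Group means in KO untreated, KO CMC, WT untreated and WT CMC libraries were 4567, 5252, 9311 and 9407 for Myh6. They were 965, 1188, 1991 and 1896 for Tnnt2, and 1054, 987.9, 2297 and 2511 for Actc1. One library stood apart from its group. In WT CMC replicate 3 the rate of deletions in mitochondrial mRNAs was 0.538 per 10000 read bases, against 0.769 and 0.935 in WT CMC replicates 1 and 2. The 3 KO CMC libraries were at 0.564, 0.490 and 0.553 and the untreated libraries at 0.187 to 0.199. On the third principal component of nuclear genes (2.54% of variance) WT CMC replicate 3 was at -6.78 and the other WT CMC libraries at 13.2 and 14.3. The second (4.76%) set all CMC libraries, at -13.42 to -5.42, apart from the untreated ones, at 7.38 to 12.27. There WT CMC replicate 3 was at -11.52 and WT CMC replicates 1 and 2 at -9.19 and -5.42. WT CMC replicate 1 had 17.7 mismatches per 10000 bases of these mRNAs, and the other 11 libraries 11.9 to 13.4. Counts are given below with and without WT CMC replicate 3. That library was singled out by its own values, so calls gained without it are no independent support.

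The change in read counts after CMC was called as different between the 2 genotypes for a small set of genes. Most mitochondrial mRNAs had a higher change in KO than in WT, and 4 small structural RNAs, among them the vault RNA Vaultrc5, had a lower one. Of 12788 genes tested, 137 (1.07%) had a higher change in KO and 50 (0.391%) a lower one (quasi-likelihood test of edgeR, p under 0.05 after Benjamini-Hochberg adjustment), and the median difference over all genes was -0.01. At an unadjusted p under 0.05 the counts were 873 and 730. The 2 changes themselves, from the same fit, gave 654 genes higher (5.11%) and 512 lower (4%) in KO, and 194 higher (1.52%) and 242 lower (1.89%) in WT. Without WT CMC replicate 3 the difference was called for 413 (3.16%) and 222 (1.7%) of 13064 genes, which included all 137 and all 50. With the deletion rate of each library as a covariate, an alternative chosen after seeing the data, 11 genes were higher (0.086%) and 4 lower (0.0313%). Leaving out any one of the other 11 libraries gave 55 to 150 higher and 28 to 53 lower, with the fewest without WT CMC replicate 2.

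**Figure D1:**
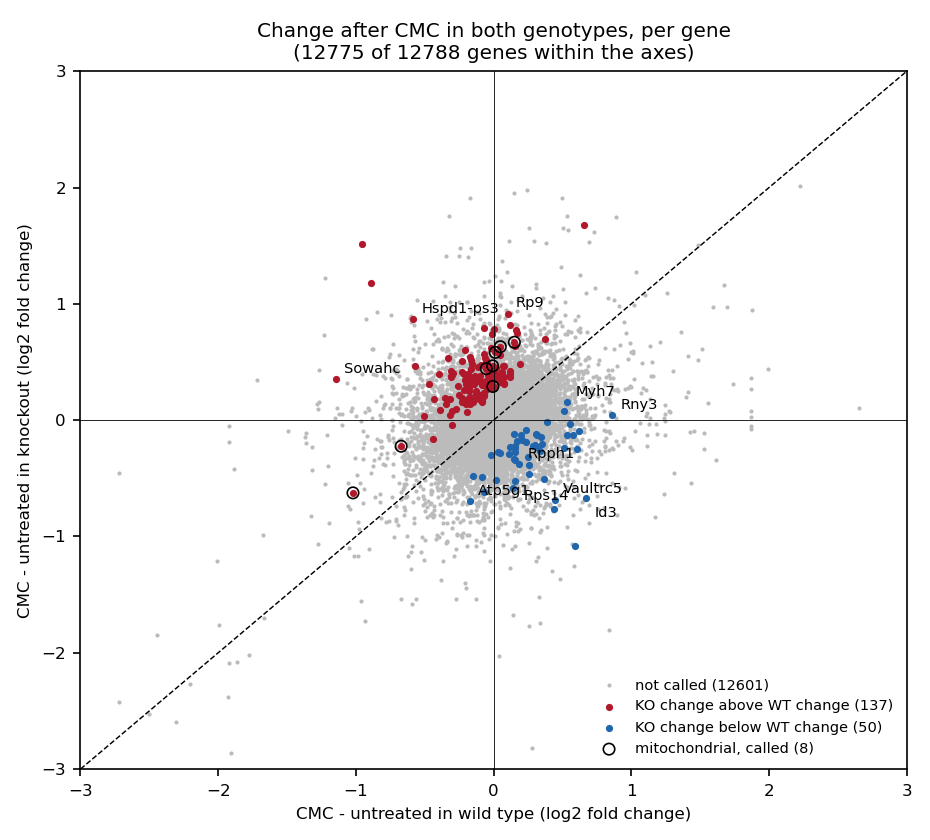
Each point is 1 of 12788 genes, placed by its log2 change after CMC in WT hearts (x axis) and in KO hearts (y axis), with 12775 of them inside the axes. Red points are the 137 genes whose change was higher in KO, blue points the 50 whose change was lower, rings mark the 8 mitochondrial features among them, and the dashed line is equal change.

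**Figure D2:**
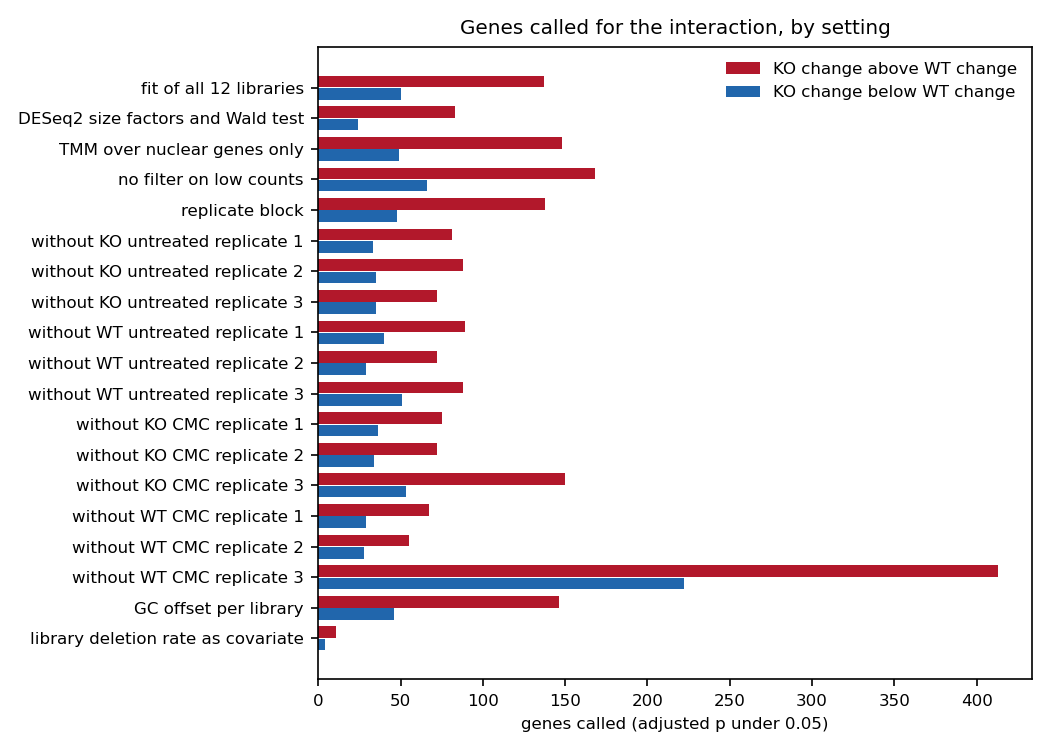
Bars give the number of genes called for the difference (x axis, higher in red and lower in blue) under each setting (y axis). Leaving out WT CMC replicate 3 gave 413 and 222, and adding the deletion rate of each library gave 11 and 4.

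The calls moved with base composition as well. Across 7837 genes of at least 4 CPM, the correlation of the change after CMC with GC content was 0.428 in WT, 0.234 in KO and -0.149 for the difference (Pearson's r, a description across genes that share libraries). When genes were put in 5 equal groups by GC content, 37 were higher and 2 lower in the group of lowest GC, and 11 and 20 in that of highest GC. With an offset for GC content in each library 146 were higher (1.14%) and 46 lower (0.36%). The offset was chosen after seeing the data. The part of GC content in the difference was not otherwise tested.

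The complex I mRNAs mt-Nd1, mt-Nd2, mt-Nd5 and the mt-Nd4l and mt-Nd4 pair, and mt-Cytb, rose after CMC in KO hearts, and their changes in WT did not pass the test. Of 11 mRNA features (13 genes, since the overlapping pairs mt-Atp8 and mt-Atp6, and mt-Nd4l and mt-Nd4, were counted jointly), 8 had a higher change in KO and 0 a lower one. Their median difference was 0.45 against -0.01 over all genes, of which 1.07% were higher and 0.391% lower. mt-Nd2, a complex I subunit, stood at 48560, 50120 and 48840 CPM in KO untreated and 77460, 78170 and 73060 in KO CMC libraries. In WT it stood at 12320, 12530 and 12010 untreated and 11770, 10770 and 15600 after CMC. All 3 KO CMC libraries lay above all KO untreated ones, while the WT groups overlapped, with WT CMC replicate 3 highest. The difference was 0.58 (SE 0.09, edgeR adjusted p = 7.45e-05), from a change of 0.63 in KO and 0.05 in WT. mt-Cytb, the only mitochondrially coded subunit of complex III, was at 23230, 23320 and 23090 CPM in KO untreated and 35440, 35540 and 33370 in KO CMC libraries. Its WT values were 12050, 12210 and 12010 untreated and 11280, 10090 and 15220 after CMC, again with replicate 3 highest. The difference for mt-Cytb was 0.57 (SE 0.09, edgeR adjusted p = 0.000139).

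The other complex I mRNAs followed with differences of 0.52 for mt-Nd5, 0.50 for mt-Nd1, 0.47 for the mt-Nd4l and mt-Nd4 feature and 0.45 for mt-Nd3. mt-Nd3 differed from them in that it fell after CMC in both genotypes. It went from 8929, 8714 and 8613 to 7593, 7529 and 7351 CPM in KO, and from 2502, 2607 and 2559 to 1533, 1458 and 1825 in WT. The log2 changes were -0.22 in KO and -0.67 in WT, and the CMC libraries did not overlap the untreated ones in either genotype. The ATP synthase feature mt-Atp8 and mt-Atp6 was called at 0.30 (edgeR adjusted p = 0.0209). That call was lost when KO untreated replicate 1 or 3, WT untreated replicate 1 or 2, or KO CMC replicate 1 or 2 was left out, at 0.28 to 0.30 with adjusted p = 0.0525 to 0.0908 by edgeR. Cytochrome c oxidase mRNAs were not called, with mt-Co1 at 0.19 (edgeR adjusted p = 0.196), mt-Co2 at 0.23 (0.0834) and mt-Co3 at -0.12 (0.458). All of them passed without WT CMC replicate 3, mt-Co1 at 0.24, mt-Co2 at 0.30 and mt-Co3 at -0.15 (edgeR adjusted p = 1.91e-05, 4.98e-08 and 0.019), and mt-Co1 and mt-Co2 also passed with no filter on low counts. DESeq2 called mt-Co2 (adjusted p = 0.0307). mt-Nd6 is coded opposite to mt-Nd5, which it overlaps, and no source used here says if reads were counted by strand. The mt-Nd6 difference of 0.40 (edgeR adjusted p = 0.048) is therefore uncertain. Mean counts of mt-Nd6 fell after CMC in both genotypes, from 865.8 to 561.2 CPM in KO and from 2211 to 1090 in WT. The mt-Nd6 call was lost without any one library other than KO CMC replicate 3 and WT CMC replicate 3, with the lowest value, 0.25, without WT CMC replicate 2 (edgeR adjusted p = 0.226), and DESeq2 did not call it (adjusted p = 0.377). With the deletion rate as a covariate, 4 of these 8 calls remained, at 0.27 for mt-Nd2, 0.26 for mt-Nd3, 0.23 for mt-Cytb and 0.22 for mt-Nd1, and mt-Nd6 was at -0.01. All 8 remained without WT CMC replicate 3, from 0.37 for the mt-Atp8 and mt-Atp6 feature to 0.76 for mt-Cytb.

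The rRNAs of the mitochondrial ribosome did not pass. The 16S rRNA mt-Rnr2 had a mean of 63790 CPM in KO untreated, 64880 in KO CMC, 484000 in WT untreated and 442900 in WT CMC libraries, with a difference of 0.15 (SE 0.08, edgeR adjusted p = 0.398). mt-Rnr2 passed without WT CMC replicate 3 (0.19, edgeR adjusted p = 0.0013) and with no filter on low counts. The 12S rRNA mt-Rnr1 was at 173500, 157100, 45690 and 40150 in the same order, with a difference of 0.04 (SE 0.07, edgeR adjusted p = 0.865). Both tRNA genes with enough counts, mt-Tl1 (-0.50, SE 0.77) and mt-Tm (0.24, SE 0.43), did not pass either, and neither had an unadjusted p under 0.05.

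As a share of all counts, mitochondrial RNA went from 73.0% ± 0.240 (SD, n = 3) to 75.2% ± 0.381 in KO and went from 72.5% ± 0.397 to 71.2% ± 1.04 in WT. The single WT CMC values were 70.8%, 70.5% and 72.4%, the last from replicate 3 and inside the range of untreated WT. The changes differed by 3.35 percentage points (exact permutation test, two-sided, p = 0.1, the smallest that 3 against 3 allows). Within mitochondrial counts, 12S rRNA went from 24.7% to 19.8% in KO and from 6.15% to 5.85% in WT (difference -4.59 points, exact p = 0.1). 16S rRNA went from 9.07% to 8.17% in KO and from 65.1% to 64.5% in WT (difference -0.32 points, exact p = 0.8, or -0.14 on the log2 scale with exact p = 0.1). No p in this paragraph could pass 0.05.

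Read depth along the mitochondrial genome covered tRNA genes too short for gene counts. Of 38 features, 12 (31.6%) had a higher change in KO and 2 (5.26%) a lower one (limma on log2 mean depth scaled to nuclear counts, Benjamini-Hochberg adjusted p under 0.05). After CMC depth rose over 10 features (26.3%) and fell over 22 (57.9%) in KO, and in WT it rose over 0 (0%) and fell over 24 (63.2%). The 12 included every mRNA gene other than mt-Co1, mt-Co2 and mt-Co3. Depth over mt-Nd6 changed by 0.70 in KO and 0.05 in WT, while its gene counts fell in both genotypes. Depth counts both strands, so depth over mt-Nd6 need not be that of its mRNA. The 12 also included mt-Td, the aspartate tRNA gene, and mt-Tn, that of asparagine (0.27, limma adjusted p = 0.0396). Depth per 1000000 effective nuclear counts over mt-Td was 29.7, 22.3 and 22.4 in KO untreated, 24.6, 26.8 and 27.1 in KO CMC, 38.8, 44.3 and 39.0 in WT untreated and 21.1, 22.1 and 30.2 in WT CMC libraries. The WT groups did not overlap and the KO groups did, which gave a difference of 0.84 (SE 0.20, limma adjusted p = 0.0157). The genes for the serine tRNA mt-Ts1 (-0.55, SE 0.15, limma adjusted p = 0.0157) and the isoleucine tRNA mt-Ti (-0.55, SE 0.17, 0.0204) had lower changes in KO. mt-Ts1 fell from 4638, 4521 and 4661 to 3250, 3280 and 3449 in KO and went from 2794, 2889 and 2810 to 3165, 3528 and 2406 in WT, where replicate 3 moved against the others. Depth counts both strands and reads that run in from neighbouring genes, so depth over a tRNA gene need not be the tRNA itself.

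**Figure D3:**
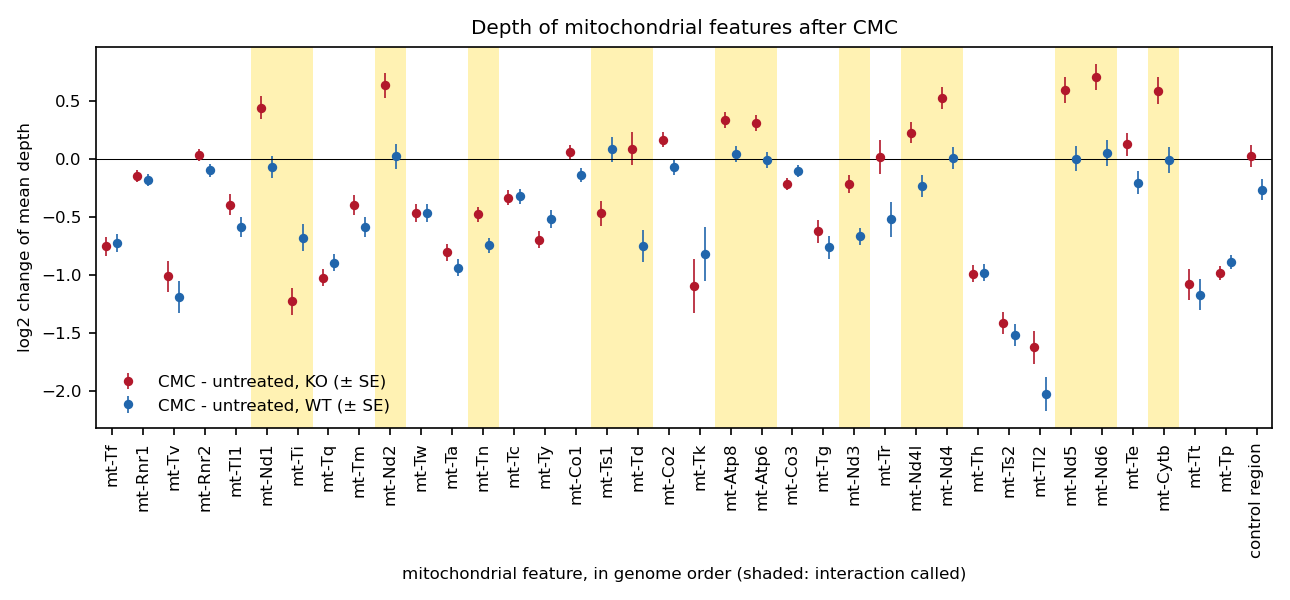
Points give the log2 change of mean depth after CMC (y axis, ± SE, n = 3 a group) for 38 mitochondrial features in genome order (x axis), in red for KO and blue for WT. Shading marks the 14 features whose changes differed, such as mt-Nd2 at 0.63 in KO and 0.02 in WT.

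The calls among small structural RNAs were all lower in KO. Of 19 such RNAs tested, 0 had a higher and 4 a lower change in KO, beside 1.07% and 0.391% of all genes. Their median difference was -0.20 against -0.01 over all genes. At an unadjusted p under 0.05 the counts were 2 and 8, beside 12.5% of all genes in both directions together. DESeq2 called 1 higher and 2 lower, with no adjusted p for Snora73b. No enrichment was tested. Vaultrc5, an RNA of the vault particle (mm10 chromosome 18, 36801866 to 36802008), stood at 79.6, 72.8 and 79.0 CPM in KO untreated and 50.7, 41.0 and 52.5 in KO CMC libraries. In WT it stood at 32.5, 35.0 and 35.3 untreated and 47.2, 58.1 and 34.2 after CMC. The KO groups did not overlap, and in WT replicates 1 and 2 of the CMC group were above all untreated values while replicate 3 was within their range. The difference was -1.13 (SE 0.13, edgeR adjusted p = 3.72e-08), or -0.58 (adjusted p = 0.000868) with the deletion rate as a covariate. Rpph1, the RNA of RNase P, went from 842, 886 and 878 to 611, 674 and 722 CPM in KO and from 595, 608 and 662 to 761, 795 and 567 in WT. Its difference was -0.57 (SE 0.09, edgeR adjusted p = 5.95e-05), and -0.26 (0.0745) with the covariate. The Y RNA Rny3 rose in WT (0.86) and did not pass in KO (0.05), with 36.1, 61.0 and 27.2 CPM in WT CMC against 22.1, 23.1 and 23.5 in WT untreated libraries. For Rny3 the difference was -0.82 (SE 0.21, edgeR adjusted p = 0.0291), -0.01 with the covariate and -0.42 (adjusted p = 0.251) without WT CMC replicate 2. Snora73b, a small nucleolar RNA, was lower by the same test (-0.72, SE 0.16). Rn7s1, a signal recognition particle RNA, was at 0.48 (edgeR adjusted p = 0.0555) and passed with the covariate (0.68, adjusted p = 0.00145). Of 11 abundant long noncoding RNAs 1 was higher and 0 lower, beside 1.07% and 0.391% of all genes. The 1 called was the imprinted Kcnq1ot1 (0.32), while Malat1 fell by 0.22 in KO and by 0.24 in WT with a difference of 0.01.

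Among called nuclear protein-coding genes, Spa17, first named in sperm, had the highest difference (2.08, SE 0.54, edgeR adjusted p = 0.0323), at 0.251, 0.260 and 0.689 CPM in KO untreated, 1.03, 1.03 and 0.680 in KO CMC, 1.97, 2.29 and 1.59 in WT untreated and 0.817, 1.12 and 1.20 in WT CMC libraries. Pqbp1, a splicing-linked polyglutamine-binding protein, rose in KO from 6.69, 6.50 and 6.72 to 10.8, 11.5 and 12.3 CPM. In WT Pqbp1 was at 7.96, 6.87 and 7.50 untreated and 7.08, 5.49 and 8.77 after CMC, which overlap (difference 0.87, SE 0.19, edgeR adjusted p = 0.0049). Rp9, another gene linked to splicing, rose in KO from 6.69, 7.02 and 7.15 to 13.1, 13.2 and 13.0 CPM, while its WT groups, at 9.84 to 14.5 and 12.8 to 14.3, overlapped (difference 0.81, SE 0.16). Sowahc (1.50), Zscan29 (0.87), Srek1ip1 (0.81), Ikzf5 (0.80) and Cgrrf1 (0.78) completed the 8 highest.

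The lowest was Id3, an inhibitor of basic helix-loop-helix transcription factors. It went from 7.45, 6.50 and 6.72 to 5.14, 3.38 and 4.37 CPM in KO and from 4.59, 4.29 and 3.47 to 7.18, 7.81 and 4.62 in WT, so that it fell in KO and rose in WT (difference -1.34, SE 0.24, edgeR adjusted p = 0.000441). The mitoribosomal protein gene Mrpl36 (-1.20) was followed by Ctdnep1 (-0.88), Aar2 (-0.85), Pskh1 (-0.75), Tspan13 (-0.72), Ncdn (-0.71) and Rps14 (-0.68). Pseudogenes called were higher in KO, with Hspd1-ps3 at 1.46, Rbm3-ps at 1.03 and Rpl14-ps1 at 0.50. Reads of pseudogenes and of ribosomal protein genes such as Rps14 can be shared with near-identical copies, so these values are uncertain. Of 42 called nuclear genes that the naming rule chose, all 42 remained without WT CMC replicate 3, 33 with the GC offset and 3 with the deletion rate as a covariate, namely Hspd1-ps3, Vaultrc5 and Myh7. Each of the 12 libraries was also left out in turn. Of the 42, 16 kept their call in every fit and 26 lost it in at least 1. Those that kept it were Rp9, Id3, Rps14, Hspd1-ps3, Vaultrc5, Rpph1, Ndufa12, Ndufs5, Ndufb10, Atp5g1, Atp5b, Fabp3, Csrp3, Tnnt2, Myh7 and Rpl23. Every other called nuclear gene named in this report is among the 26, such as Spa17, Sowahc, Zscan29, Ikzf5, Cgrrf1, Pqbp1, Mrpl36, Ctdnep1, Aar2, Tspan13, Ncdn, Kcnq1ot1, Cox5a, Acadl, Dcn and Col1a2. The fewest calls, 18 of the 42, were kept without WT CMC replicate 2, and between 22 and 35 without any one of the others apart from WT CMC replicate 3. DESeq2 gave an adjusted p for 24 of the 42 and called 17, and those not called include Ndufs5, Fabp3 and Rpl23.

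Nuclear genes of oxidative phosphorylation were called in both directions, and their counts, like those of the lists that follow, stand beside 1.07% higher and 0.391% lower over all genes tested. The lists are small, were not set against genes of like abundance, and no enrichment was tested. At an unadjusted p under 0.05, 12.5% of all genes passed. In complex I 7 were higher and 7 lower, in complex IV 4 and 7, and in complex V 1 and 6. Among genes of fatty acid use 5 and 5 passed, in the sarcomere list 8 and 7, and among ribosomal protein genes 7 and 14. In complex I, which feeds electrons from NADH, 5 of 37 were higher and 1 lower (median -0.09), with Ndufs5 at 0.64 (SE 0.13), Ndufa12 at 0.47 and Ndufb10 at 0.36. Ndufs5 rose in KO from 33.7, 31.4 and 31.2 to 49.97, 49.6 and 43.0 CPM, and in WT the untreated 42.0, 42.5 and 45.3 were overlapped by 36.8, 33.1 and 54.0 after CMC. In complex IV, cytochrome c oxidase, 3 of 13 were higher and 2 lower (median -0.21). Cox6c was higher at 0.28, having fallen less in KO (-0.16) than in WT (-0.44), while Cox5a (-0.43) and Cox4i1 (-0.26) were lower. In complex V, the ATP synthase, 1 of 15 was higher and 2 lower (median -0.19). Atp5g1, of its membrane ring, fell in KO from 116, 119 and 114 to 74.3, 68.5 and 73.2 CPM, and in WT went from 120, 112 and 105 to 110, 109 and 80.4, with replicate 3 lowest. The difference for Atp5g1 was -0.52 (SE 0.09, edgeR adjusted p = 0.000321). Atp5b was lower (-0.28) and Atp5h higher (0.28).

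Of 24 genes of fatty acid use 2 were higher and 0 lower (median -0.06). Fabp3, the fatty acid binding protein of heart, rose in KO from 1045, 1107 and 1059 to 1370, 1372 and 1242 CPM and in WT was at 1263, 1228 and 1278 untreated and 1076, 956 and 1377 after CMC (difference 0.46, SE 0.09, edgeR adjusted p = 0.00078). Acadl, a long-chain acyl-CoA dehydrogenase, was at 0.37. In the sarcomere list 2 of 20 were higher and 2 lower (median 0.02). Tnnt2, cardiac troponin T, rose in KO from 974, 969 and 952 to 1188, 1227 and 1148 CPM, while WT was at 1913, 2022 and 2038 untreated and 1781, 1704 and 2204 after CMC (difference 0.37, SE 0.07). Myh7, the slow myosin heavy chain, rose in both genotypes and more so in WT. It went from 312, 301 and 293 to 333, 347 and 327 CPM in KO and from 53.2, 45.7 and 51.5 to 75.0, 65.2 and 78.0 in WT, with no overlap in either. The difference for Myh7 was -0.38 (SE 0.08, edgeR adjusted p = 0.00233) and -0.53 (7.63e-06) with the covariate. Csrp3, a Z-disc protein, was also lower (-0.38). Of 35 cytosolic ribosomal protein genes 3 were higher, with Rpl23 at 0.52, and 4 lower, with Rps14 at -0.68 (median -0.10).

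Several short lists held no call, and with 1.07% and 0.391% of all genes called, and 12.5% at an unadjusted p under 0.05, a count of 0 in lists of this size is near the background. None of the 8 genes of the 16S module, Ptcd1 included, was called (median -0.13), and 0 had an unadjusted p under 0.05; Trub2, a pseudouridine synthase, was at -0.39 (SE 0.22) and the RNA-binding protein Fastkd2 at -0.11 (SE 0.16). Among 15 pseudouridine synthases and their partners 0 were called and 1 had an unadjusted p under 0.05, with Nop10 at 0.30 and Nhp2 at 0.19. Of 25 targets of the integrated stress response 0 were called and 2 had an unadjusted p under 0.05; its transcription factor Atf4 was at 0.16 (edgeR adjusted p = 0.467). Of 11 histone genes 0 were called and 2 had an unadjusted p under 0.05. Among marker lists, 1 of 6 cardiomyocyte genes was higher (Tnnt2), and 1 of 8 fibroblast genes was higher (Dcn, 0.26) and 1 lower (Col1a2, -0.35). None of 8 endothelial, 8 macrophage, 7 smooth muscle and pericyte, or 5 erythrocyte genes was called, with 2, 1, 1 and 2 at an unadjusted p under 0.05. DESeq2 called 0 in these lists without a call, but gave an adjusted p for 1879 of the 12788 genes, and none for Fastkd2, Trub2, Nop10 or Nhp2, so its 0 is no check of them. In bulk RNA, fewer cells of a type and less RNA per cell cannot be told apart. When WT CMC replicate 3 was left out, the heart myosin Myh6 (0.25), the endothelial cadherin Cdh5 (0.28) and the pericyte gene Rgs5 (0.22) were higher (edgeR adjusted p = 9.03e-06, 0.00597 and 0.00461). The cardiac actin Actc1 (-0.29) and the globin Hbb-bs (-0.42) were then lower (edgeR adjusted p = 1.62e-06 and 0.000757). None of them was called with all 12 libraries. With a different library left out their edgeR adjusted p reached 0.348, 0.478, 0.49, 0.226 and 0.535, in the order named.

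Deletions in mitochondrial reads were more frequent after CMC in every treated library of both genotypes. In mitochondrial mRNAs the mean went from 0.198 to 0.536 per 10000 read bases in KO and from 0.190 to 0.747 in WT (difference -0.219, exact permutation test, two-sided, p = 0.3). In mt-Rnr2 the KO libraries went from 0.216, 0.217 and 0.208 to 0.577, 0.486 and 0.548, and the WT libraries from 0.228, 0.216 and 0.224 to 0.948, 1.15 and 0.638. All WT CMC libraries were above all KO CMC libraries over mt-Rnr2 (difference -0.364, exact p = 0.1, the smallest possible), and over mRNAs replicate 3 of WT lay among the KO libraries. The log2 ratio of the mt-Rnr2 rate to the mRNA rate within a library went from 0.11 to 0.00 in KO and from 0.23 to 0.28 in WT (difference -0.16, exact p = 0.1). Of the 1582 bases of mt-Rnr2, 543 lie more than 150 bases from a depth of 900000, near the highest in the tables. At base 1179, for example, mean depth was 999241 in WT untreated and 168145 in KO untreated libraries. The rates over mt-Rnr2 pool bases near and away from this limit, and its part in them was not tested.

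**Figure D4:**
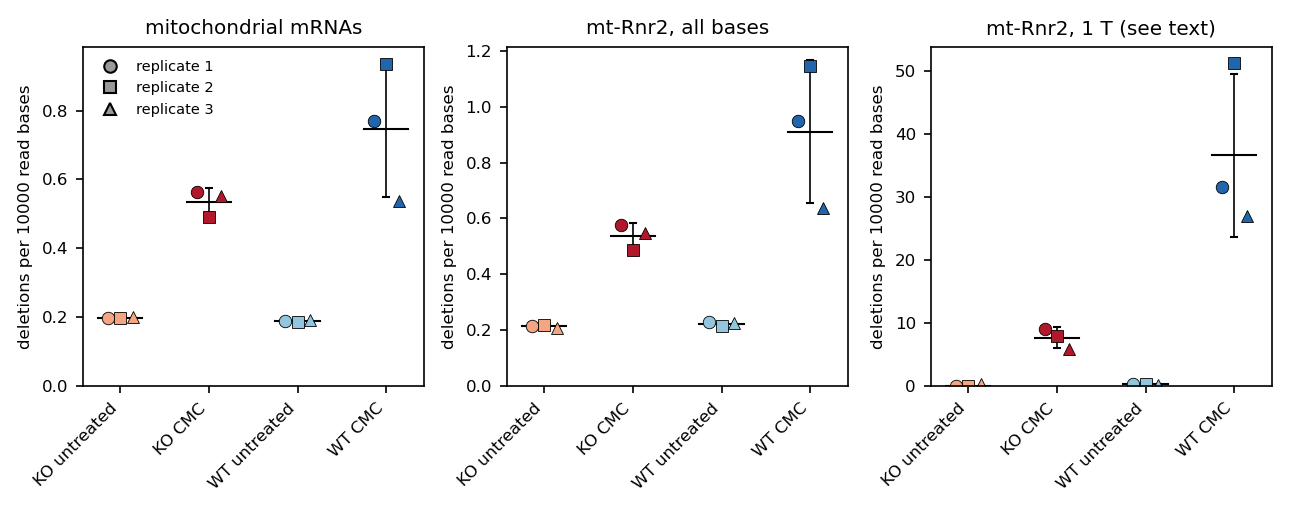
Deletions per 10000 read bases (y axis) are shown for each library (symbols by replicate) with the mean and SD of each group of 3, over mitochondrial mRNAs, over mt-Rnr2 and at the single T of mt-Rnr2 centred in the first window printed. WT CMC replicate 3 is the lowest of its group in all 3 panels, at 0.538 over mRNAs, 0.638 over mt-Rnr2 and 27.0 at the T.

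Base by base, 3027 positions had enough deletions to be tested (edgeR quasi-likelihood test on deletions with depth as an offset). In KO 1099 positions rose after CMC (36.3%) and 6 fell (0.198%), and in WT 1658 rose (54.8%) and 8 fell (0.264%), with a median change of 1.16 in KO and 2.03 in WT (log2). The difference was higher in KO at 0 positions (0%) and lower at 8 (0.264%), and at an unadjusted p under 0.05 at 32 and 328. Of the 8, 7 lie in mt-Rnr2 and 1 in mt-Rnr1, and all 8 lie in a run of at least 2 like bases, as did 60.9% of the tested positions. The share of tested positions that lie in mt-Rnr2 was not counted, so no concentration of calls there can be read from this. At base 1895, in the run of A printed above, the rate went from 1.46, 1.12 and 1.40 per 10000 to 3.37, 2.31 and 2.62 in KO and from 0.722, 0.702 and 0.778 to 8.24, 9.43 and 3.72 in WT. All groups stood apart, with WT CMC replicate 3 the closest to KO, and the difference was -2.21 (SE 0.37, edgeR adjusted p = 0.000113). At base 1152, in the run of T, KO went from 2.998, 2.73 and 2.17 to 4.17, 3.08 and 5.15 and WT from 1.67, 1.93 and 1.89 to 11.6, 16.6 and 5.11. Here WT CMC replicate 3 lay inside the KO CMC range (difference -1.95, SE 0.35, edgeR adjusted p = 0.000303). The other called bases of mt-Rnr2 were 1275, 1934, 1564, 1894 and 1229, with differences of -1.52, -1.71, -2.04, -1.06 and -1.52. Of these and the 2 above, 1564 alone lies more than 150 bases from a depth of 900000, near the highest depth in the tables (1000000). Bases 1894 and 1895 lie in the same run of A and need not be separate events.

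Relative to the deletion rate of mRNAs in each library, an alternative chosen after seeing the data, 2 positions were lower (0.0661%), 1895 (-1.63) and 1152 (-1.35). Higher were 3 (0.0991%), 4052 (0.96) in mt-Nd2 and 8107 (1.39) and 8108 (1.36) in mt-Atp6. The adjacent bases 8107 and 8108 held 1135 and 1151 deletions in KO CMC and 273 and 279 in WT CMC libraries, so they need not be separate events. With deletions as a share of reads and limma in place of the log scale, also chosen after seeing the data, 0 positions were called (0%), with 41 and 411 at an unadjusted p under 0.05. Without WT CMC replicate 3, 2 were higher and 149 lower, and without any one of the other 11 libraries 0 were higher and 2 to 6 lower.

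The base with the largest gap in deletion share, chosen after its values were seen, was the T at 2509, base 1416 of mt-Rnr2 and not part of a run. Its deletions per 10000 were 0, 0 and 0.252 in KO untreated, 0.359, 0.335 and 0.234 in WT untreated, 9.11, 8.01 and 5.81 in KO CMC and 31.6, 51.2 and 27.0 in WT CMC libraries. On the log2 scale deletions rose after CMC in both genotypes (edgeR adjusted p = 1.89e-15 in KO and 1.42e-36 in WT), the WT CMC libraries were all above the KO CMC libraries, and WT CMC replicate 3 was not among the KO values. Behind these stood 1 deletion in the 3 KO untreated, 28 in the WT untreated, 57 in the KO CMC and 1362 in the WT CMC libraries, at mean depths of 39954, 301599, 24560 and 121134. The mean rate differed from untreated by 7.56 in KO and by 36.3 in WT, a difference of -28.7 per 10000 (exact permutation test, two-sided, p = 0.1, the smallest possible). The base was picked by this same gap among 3027 positions. Neither this p nor the separation of the CMC groups is therefore support for a difference. On the log2 scale the changes were 6.36 in KO and 6.84 in WT, and the difference was -0.48 with an SE of 1.74 (edgeR adjusted p = 0.979). Leaving out 1 library gave differences from -1.02 to 2.79 at 2509, the highest without KO untreated replicate 3, the one KO untreated library with a deletion there, and relative to the mRNA rate it was 0.12, so the sign on the log2 scale is not fixed. On the share scale it was -28.7 (SE 6.46, limma adjusted p = 0.228), so neither test called it.

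Depth steps, which compare each base with the next one in the 3′ direction of the gene, gave another readout of the same stretch. Of 14519 bases tested, the change in the step was higher in KO at 82 (0.565%) and lower at 95 (0.654%) (limma, Benjamini-Hochberg adjusted p under 0.05), and 53 of these lie in mt-Rnr2. The share of tested bases that lie in mt-Rnr2 was not counted, so the 53 are not read as a concentration there. At an unadjusted p under 0.05 the counts were 1903 and 1812. Without WT CMC replicate 3, 2922 were higher and 2669 lower, and without any one of the other libraries 19 to 75 and 30 to 95. Of the calls in mt-Rnr2, 11 higher and 12 lower lie more than 150 bases from a depth of 900000. Leaving out all bases within that distance, an alternative chosen after seeing the data, 61 (0.465%) were called higher and 61 lower of 13121. After base 2502, 7 bases before the T at 2509, the log2 step was -0.067, -0.064 and -0.064 in WT untreated and -0.233, -0.209 and -0.198 in WT CMC libraries. In KO the steps were -0.084, -0.083 and -0.086 untreated and -0.081, -0.082 and -0.084 after CMC. The WT CMC libraries stood apart from the other 9, replicate 3 included, and the difference was 0.15 (SE 0.01, limma adjusted p = 0.000287).

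After base 2521, 12 bases past the T, the step was 0.014, 0.016 and 0.015 in WT untreated and 0.120, 0.108 and 0.101 in WT CMC libraries, against 0.017, 0.011 and 0.013 in KO untreated and 0.029, 0.031 and 0.032 in KO CMC libraries. Both genotypes had larger steps after CMC, and every WT CMC library was above every KO CMC library (difference -0.08, SE 0.005, limma adjusted p = 0.000372). Bases 2520 (-0.02) and 2525 (-0.03) differed in the same direction. With forward reads only, an alternative chosen after seeing the data, 52 (0.36%) and 68 (0.471%) of 14436 bases were called, of which 15 and 21 were shared with all reads. There 2521 kept its call (-0.13, limma adjusted p = 0.000158) and 2502 lost it (0.01, adjusted p = 0.299).

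**Figure D5:**
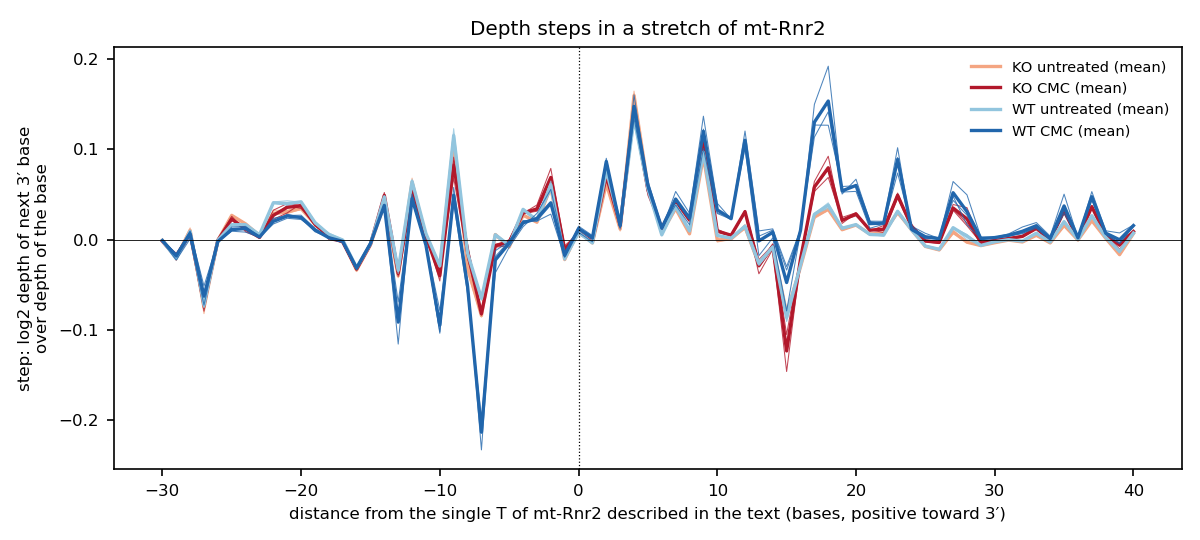
The log2 step in depth from each base to the next (y axis) is drawn against distance in bases from the single T of mt-Rnr2 (x axis, positive toward 3′), with thick lines for group means and thin lines for libraries. At -7 the WT CMC lines reach -0.213 on average while the other 3 groups stay between -0.084 and -0.065, and at 12 the WT CMC lines lie at 0.110 and the KO CMC lines at 0.031.

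Other steps stood outside this stretch. At 1347, in the 5′ part of mt-Rnr2, the step was -0.815, -0.807 and -0.802 in KO untreated and -1.12, -1.16 and -1.07 in KO CMC libraries, and from -0.058 to -0.062 in WT untreated and -0.056 to -0.093 in WT CMC libraries. Depth thus dropped more after this base in KO, more again after CMC, and the difference was -0.30 (SE 0.03, limma adjusted p = 0.00224); the base lies within 150 bases of a depth of 900000, and the call was lost with forward reads only (-0.03, adjusted p = 0.221). In mt-Nd4l the step at 9908, printed above, was 0.158, 0.159 and 0.154 in KO untreated, 0.199, 0.197 and 0.201 in KO CMC, 0.162, 0.160 and 0.158 in WT untreated and 0.168, 0.163 and 0.166 in WT CMC libraries. The KO CMC libraries stood above all others (difference 0.04, SE 0.003, limma adjusted p = 0.000372), and the call was kept with forward reads only (0.04). In mt-Atp6 the steps at 8584 (0.25) and 8582 (0.09) were called with all reads and were at -0.02 and -0.03 with forward reads only.

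Mismatches and deletions together, tested at the 20 positions where they took at least 1% of reads, gave no call: 0 positions passed (0%) by limma, and 0 had an unadjusted p under 0.05. The lowest unadjusted p was that of the T at 4949 of mt-Nd2 (0.41, limma adjusted p = 0.439). The T at 9461 of mt-Nd3 was at -0.92 with the same adjusted p and passed the limma test without KO CMC replicate 1, at -1.55.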

How the data were processed

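Total heart RNA depleted of cytoplasmic rRNA was sequenced from TruSeq libraries, per the labels' protocols. The authors deposited raw read counts per gene and, for the mitochondrial chromosome, counts of reads, mismatches, deletions and insertions per base. The submitters' processing notes name HISAT2 2.0.5, SAMtools 1.5, featureCounts 1.5.1, DESeq2 1.16.1 and mm10, with no roles; no source used here gives the strand of counting, read trimming or a depth limit. Symbols came from GENCODE M21 for 51596 of 51911 genes and from the table for 36 mitochondrial features, and 279 had none.

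From these, genes passing edgeR's filterByExpr were tested with edgeR 4.0.16 (quasi-likelihood, TMM, 4 groups in 1 fit, R 4.3.3). Mean depth over mitochondrial features was scaled by the effective library size of nuclear genes and tested on the log2 scale with limma 3.58.1. Deletions were tested with edgeR with log depth as offset, where they summed to at least 20. Steps were log2((depth of the next base in the 3′ direction + 1)/(depth + 1)) at depths from 100 to 900000, tested with limma. Mismatches plus deletions were tested as log2 odds (0.5 added) at a depth of at least 100. Single values were tested by exact permutation, two-sided. Scripts were tested on simulated data. Windows were copied from the deposited reference column.

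Members and lists were chosen with earlier results of these data known. Genes named are the 8 called protein-coding genes of largest difference each way (mean CPM of at least 1, no predicted symbols), 5 each way of other types, all mitochondrial features, and up to 3 called or 2 most abundant members of each of 21 lists. Positions named are the 5 of smallest p each way and up to 10 called bases of mt-Rnr2; 2509 and genes named from the covariate fit were chosen after their values were seen. Replicate numbers did not pair the libraries in the fits, and only the exact tests used differences by number: across 10301 genes, same-numbered libraries had correlations of deviations from -0.02 to 0.03. Alternatives were nuclear-only TMM, no filter, DESeq2 1.42.0, other thresholds, the replicate block, leaving out each library, and those described as chosen after seeing the data. 1 gene that the rule chose is not reported here. The authors' tables of untreated comparisons were not used.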

Additional observations from a re-analysis of the deposited data

Results flagged for a closer look

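Results are listed here where a test found the change after CMC to differ between KO and WT, or where a signal appeared in a column used in no comparison of the report. The change differed for 137 genes higher and 50 lower in KO, for 12 mitochondrial features higher and 2 lower, for 8 positions with lower deletions, and for 82 depth steps higher and 95 lower. Insertions in mt-Rnr2 were at 0.0704, 0.0649 and 0.0660 per 10000 read bases in WT untreated and 0.111, 0.149 and 0.0775 in WT CMC libraries (mean 0.113), so that all treated WT libraries lay above the untreated ones, with replicate 3 the lowest. In KO they were at 0.0901, 0.0905 and 0.0971 untreated and 0.0765, 0.0721 and 0.0757 after CMC, below all untreated values. The KO change minus the WT change was -0.0633 (exact permutation test, two-sided, p = 0.1, the smallest that 3 against 3 allows). Insertions were listed because this signal was seen in them. Neither the separation of the groups nor this p is therefore support for a difference.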

How the results depend on the processing

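Counts of genes for the difference, higher and lower, were 83 and 24 with DESeq2, which gave an adjusted p for 1879 of 12788 genes, and 11 and 4 with the deletion rate as a covariate. For CMC in KO they were 360 and 189, and 353 and 185. For CMC in WT they were 58 and 100, 94 and 45, and 60 and 124 with the GC offset. Lower deletions were called at 18 positions with the replicate block, 1 with a sum of at least 100, 2 (and 3 higher) relative to mRNAs and 0 on the share scale. Steps were 6 and 7 with the replicate block, without 1347, 8584 and 8582, and 61 lower away from the depth limit and 52 higher with forward reads. The replicate block gave 138 and 48 genes and 10 and 2 features, and the pairing is not given by the labels. Leaving out 1 library gave 55 to 413 and 28 to 222 genes for the difference, 432 to 812 and 291 to 641 in KO, 80 to 350 and 108 to 418 in WT, 9 to 18 and 1 to 3 features, 0 to 0 and 0 to 1 variants, 0 to 2 and 2 to 149 deletions, and 19 to 2922 and 30 to 2669 steps. The highest gene, deletion and step counts came without WT CMC replicate 3. Differences in shares ranged from 2.92 to 4.17 (mitochondrial), -4.78 to -4.42 (12S) and -0.888 to 0.437 points (16S, positive without WT replicate 2). Among called values, signs turned for mt-Nd6 with the covariate (-0.008) and for the steps at 8584 (-0.023) and 8582 (-0.028) with forward reads. Among values not called, signs also turned in at least 1 fit, among them mt-Rnr1 (-0.013) and Nhp2 (-0.263) with the covariate and deletions at 2509 relative to mRNAs (0.12). The cause was not tested. Nuclear-only TMM changed 0 of 78 results and the GC offset ended 9 calls. At 2509 the KO untreated libraries held 1 deletion in all, which limits the log2 difference there.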
